A study of Mus musculus with 89 samples.

Results

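The circadian clock genes of the lung were examined in mice given copper oxide (CuO) nanomaterials with or without an allergen challenge. They are 10 genes, chosen by name as members of the clock and of its direct output: the PAR bZIP factors Dbp, Tef and Hlf, the period genes Per1, Per2 and Per3, the nuclear receptors Nr1d1 and Nr1d2, the activator Arntl, and the repressor Nfil3. They were selected from values of these same arrays, so the values of the 10 genes below are a description and carry no test. All 10 were measured, by 19 of the 56605 probes, among 22907 genes in all.

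The 89 samples formed 26 groups, and each sample was a pool of 2 lung RNA samples. The mice were female BALB/c, 6 to 8 weeks old, kept on a 12 h light and dark cycle. All of them, controls included, were sensitized intraperitoneally with ovalbumin (OVA) in Alum on days 1 and 10. After 10 days of recovery they received oropharyngeal aspirations over 4 days of core CuO, or of CuO with carboxyl (CuO COOH), amine (CuO NH3) or polyethylene glycol (CuO PEG) surface groups, at 2.5, 10 or 40 μg/mouse, in PBS alone or together with OVA. The unit follows the paper and the sample descriptions, while the treatment text of the labels gives the same figures in mg. PBS-challenged controls had 7 samples and OVA-challenged controls 8, CuO NH3 10 and CuO PEG 10 in PBS-challenged mice had 4 each, and every other group had 3. Lungs were taken 24 h after the last exposure. The labels give this interval but not the clock hour of collection, so a difference in the hour between groups was not tested.

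In the molecular clock of mammals, the protein of Arntl (BMAL1) pairs with CLOCK and binds E-box elements, which activates the period and cryptochrome genes, Nr1d1, Nr1d2 and Dbp. The period and cryptochrome proteins repress that activity, and the Nr1d1 and Nr1d2 proteins (REV-ERBs) repress Arntl and Nfil3 through ROR elements. DBP, TEF and HLF activate D-box elements, to which NFIL3 binds as a repressor, so that genes driven by DBP and Nfil3 itself peak at opposite times of day in most tissues, the lung included.

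The stretches before the start sites of 5 of the genes are shown as examples: Dbp, Tef and Per3 among the genes that were lower, Nr1d1, the repressor, and Nfil3, which was higher. Hlf and Nr1d2, which are not shown, spanned more over the group means (2.21 and 1.83) than Tef and Per3 (1.56 and 1.47). The sequences are RefSeq's for GRCm38.p6, written 5′ to 3′ on the strand of the gene, and cover the 250 bases before the start site, at chr7:45704997-45705246 on the plus strand for Dbp, chr15:81802423-81802672 on the plus strand for the first of 2 entries of Tef, chr4:151044666-151044915 on the minus strand for Per3, chr11:98775378-98775627 on the minus strand for Nr1d1 and chr13:52981040-52981289 on the minus strand for Nfil3. Capitals mark the motifs found on either strand.
Dbp: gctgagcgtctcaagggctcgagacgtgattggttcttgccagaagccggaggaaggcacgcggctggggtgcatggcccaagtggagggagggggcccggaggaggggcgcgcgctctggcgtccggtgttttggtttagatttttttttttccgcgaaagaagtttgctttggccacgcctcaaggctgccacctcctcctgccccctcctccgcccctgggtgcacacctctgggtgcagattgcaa
Tef: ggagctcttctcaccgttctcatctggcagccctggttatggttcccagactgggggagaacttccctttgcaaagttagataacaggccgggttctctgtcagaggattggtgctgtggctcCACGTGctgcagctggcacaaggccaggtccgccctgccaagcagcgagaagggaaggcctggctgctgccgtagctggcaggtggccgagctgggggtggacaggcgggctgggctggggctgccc
Per3: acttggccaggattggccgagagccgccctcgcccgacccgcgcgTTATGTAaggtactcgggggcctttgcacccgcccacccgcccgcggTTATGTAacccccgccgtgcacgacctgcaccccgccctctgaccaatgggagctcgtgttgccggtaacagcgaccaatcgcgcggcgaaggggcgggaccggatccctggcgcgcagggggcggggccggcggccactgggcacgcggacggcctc
Nr1d1: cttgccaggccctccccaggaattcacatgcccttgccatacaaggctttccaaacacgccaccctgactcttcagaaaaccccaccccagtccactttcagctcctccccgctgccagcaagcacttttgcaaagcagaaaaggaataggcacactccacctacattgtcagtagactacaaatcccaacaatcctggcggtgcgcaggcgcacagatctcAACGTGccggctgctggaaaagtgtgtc
Nfil3: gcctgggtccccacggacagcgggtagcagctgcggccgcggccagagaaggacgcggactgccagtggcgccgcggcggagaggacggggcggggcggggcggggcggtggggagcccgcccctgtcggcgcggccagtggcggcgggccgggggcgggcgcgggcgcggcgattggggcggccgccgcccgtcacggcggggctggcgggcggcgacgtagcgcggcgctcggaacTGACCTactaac
The motifs searched were the E-box CACGTG, an E-box-like form CACGTT, the core of the D-box TTANGTA and the core of the ROR element AGGTCA, and none of the matches overlapped. Tef held an E-box, Nr1d1 an E-box-like form, Per3 a D-box core in 2 places and Nfil3 a ROR core 12 to 7 bases before its start site. Among 32851 promoters of the same length in the table, 6.02% held the E-box, 3.85% the E-box-like form, 5.93% the D-box core and 14% the ROR core. Of the 9 genes with an entry (12 entries in all), 2 held the E-box (Tef and Per1), 1 the E-box-like form, 1 the D-box core and 3 the ROR core (Per1, Nr1d2 and Nfil3). None of these letters occurred in the windows of Dbp, Hlf and Arntl. A match is a description of the sequence and no evidence of binding.

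The lung identity of the samples was checked with marker genes. All 4 measured markers of alveolar type 1 cells (Ager, Hopx, Aqp5 and Pdpn), the 5 of alveolar type 2 cells and the 5 of endothelial cells were well above background in all 89 samples. The median foreground intensity of the arrays was 86 in Cy3 and 97 in Cy5 (62 to 203 over samples), 46.7% to 68.8% of a sample's spots were well above background, and saturation was seen at 0 spots. No pair of samples correlated above 0.998. The paper took the RNA from part of the left lobe, after the lungs had been lavaged. Because such tissue holds many cell types, fewer cells of a type and less RNA per cell cannot be told apart.

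Levels and log2 fold changes are given for each gene. A level is the log2 intensity averaged over the probes of the gene, with dye, slide and array position removed. A log2 fold change comes from a linear model over all 26 groups with dye and array as terms, and is given with its standard error (SE). Calls needed both an adjusted p under 0.05 and a log2 fold change of more than 0.58 in size, a fold of about 1.5.

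Dbp, the output gene that the clock switches on most directly, had the widest range of the 10. In the 7 PBS-challenged controls its level ran from 14.06 to 14.69 with a median of 14.44. After CuO 40 the 3 pools stood at 11.30, 11.37 and 12.06, after CuO COOH 40 at 12.05, 12.19 and 13.03, and after CuO NH3 40 at 11.16, 11.29 and 11.62. After CuO PEG 40 they stood at 13.76, 13.98 and 14.02. Every pool of these 4 groups lay below every PBS-challenged control, and the first 3 groups lay far below CuO PEG 40. The log2 fold change was -3.18 ± 0.44 for CuO 40, -2.47 ± 0.43 for CuO COOH 40, -3.15 ± 0.31 for CuO NH3 40 and -0.38 ± 0.37 for CuO PEG 40.

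Dbp was lower at each higher dose of every material in PBS-challenged mice. Of the CuO PEG 2.5 pools, at 14.64, 14.67 and 14.80, only that at 14.80 lay above all PBS-challenged controls, which reached 14.69. In PBS-challenged mice the log2 fold changes at 2.5, 10 and 40 μg/mouse were -0.15, -1.45 and -3.18 for CuO, -0.67, -1.33 and -2.47 for CuO COOH, and -0.81, -1.87 and -3.15 for CuO NH3. For CuO PEG they were 0.85, 0.00 and -0.38, with standard errors of 0.42, 0.22 and 0.37. Both probes of Dbp gave this picture, with -2.96 and -3.39 after CuO 40.

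**Figure D1:**
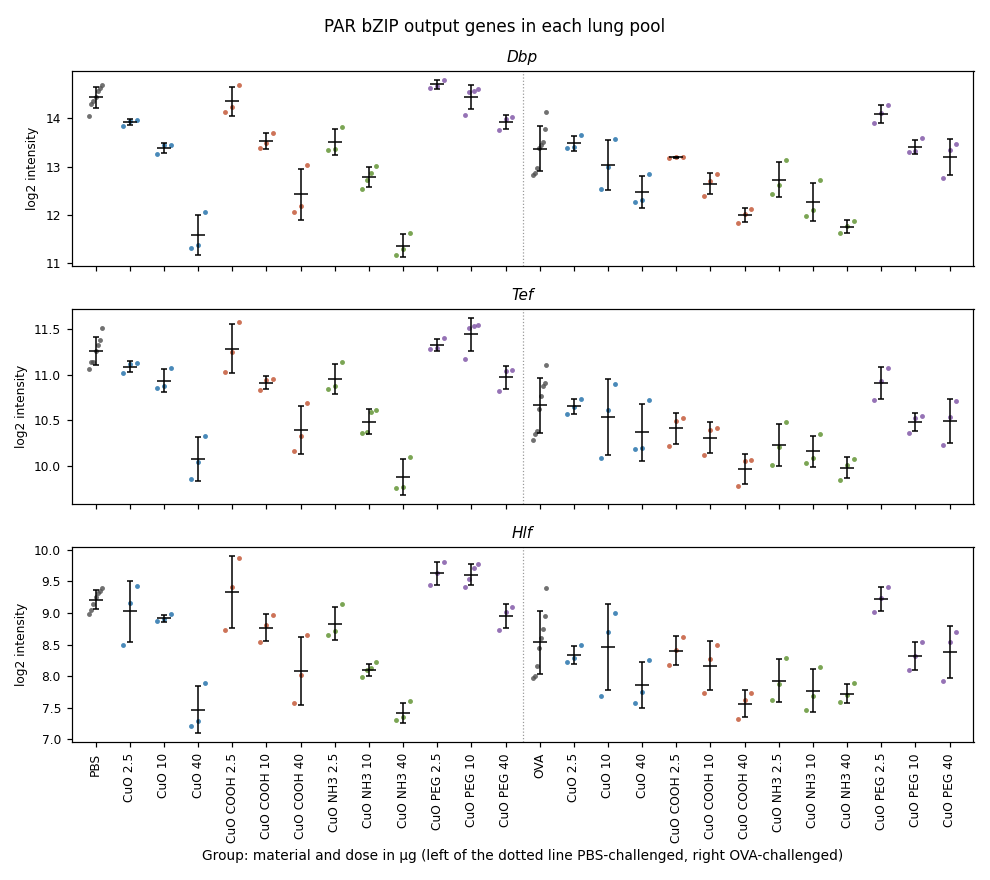
Level of Dbp, Tef and Hlf (log2 intensity, vertical axis) in the 26 groups (horizontal axis, dose in μg/mouse), with a point for each pool of 2 lung RNA samples and a bar for the group mean ± SD. The mean of Dbp was 14.43 in PBS-challenged controls, 11.57 after CuO 40, 11.36 after CuO NH3 40 and 13.92 after CuO PEG 40.

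Tef and Hlf, the other two PAR bZIP factors, moved with Dbp. Tef ran from 11.06 to 11.50 in the PBS-challenged controls (median 11.26), and stood at 9.86, 10.04 and 10.33 after CuO 40, and at 9.76, 9.78 and 10.10 after CuO NH3 40. Hlf ran from 8.99 to 9.40 in those controls (median 9.25), and stood at 7.21, 7.30 and 7.90 after CuO 40, and at 7.30, 7.35 and 7.60 after CuO NH3 40. In both genes the exposed pools and the controls did not overlap. The log2 fold changes at 40 μg/mouse of CuO, CuO COOH, CuO NH3 and CuO PEG were -1.38, -1.50, -1.45 and -0.19 for Tef and -2.13, -1.79, -1.84 and -0.08 for Hlf. The 3 probes of Tef did not give the same size after CuO 40, with -0.36 for the probe that was well above background in 87 of the 89 samples and -1.80 and -1.98 for those well above it in all 89, and the value of the gene is their mean.

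Among the period genes, repressors of the CLOCK and BMAL1 pair, Per3 moved most. Per3 ran from 7.98 to 8.41 in the PBS-challenged controls (median 8.33), and stood at 7.09, 7.10 and 7.66 after CuO 40, at 7.37, 7.42 and 7.88 after CuO COOH 40, and at 6.76, 6.90 and 7.14 after CuO NH3 40. All 9 of these pools lay below all 7 controls, while those of CuO PEG 40, at 8.01, 8.05 and 8.11, lay within their range. The log2 fold changes were -1.26, -1.23, -1.46 and -0.10 in that order of materials. For Per1, which is also induced by stress hormones, they were -0.98, -0.95, -1.08 and -0.09, and for Per2 -0.85, -0.96, -0.84 and -0.12. With each pool of the group or of its controls left out in turn, the value of Per1 ran from -1.45 to -0.32 after CuO 40 (the latter without CuO 40 replicate 2) and from -3.10 (without PBS replicate 1) to -0.01 (without CuO COOH 40 replicate 1) after CuO COOH 40, and that of Per2 after CuO COOH 40 from -1.69 to -0.65 without the same 2 pools. The 2 probes of Per2 disagreed after CuO 40, at -1.78 for the probe well above background in 89 samples and 0.09 for the probe well above it in 48, and the value of the gene is their mean.

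Nr1d1 and Nr1d2, which repress Arntl, were lower after CuO 40, CuO COOH 40 and CuO NH3 40, and Nr1d1 was lower by a smaller amount after CuO PEG 40. Nr1d1 ran from 10.10 to 10.94 in the PBS-challenged controls (median 10.52), and stood at 8.38, 8.86 and 8.94 after CuO 40, at 8.36, 8.68 and 9.08 after CuO COOH 40, and at 8.16, 8.16 and 8.63 after CuO NH3 40. None of these pools reached the range of the controls, and of CuO PEG 40, at 9.91, 9.92 and 10.13, 1 pool did. The log2 fold changes were -1.78 ± 0.48, -1.54 ± 0.47, -2.37 ± 0.34 and -0.52 ± 0.40. Those of Nr1d2 were -1.74, -1.19, -1.67 and 0.01.

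Arntl, the activator of the loop, moved little and the other way. It ran from 6.58 to 6.99 in the PBS-challenged controls (median 6.78), and stood at 7.06, 7.38 and 7.39 after CuO 40, at 6.71, 7.02 and 7.09 after CuO COOH 40, and at 7.08, 7.10 and 7.19 after CuO NH3 40. The pools of CuO 40 and CuO NH3 40 lay above all controls, those of CuO COOH 40 overlapped them, and those of CuO PEG 40, at 6.48, 6.49 and 6.57, lay below. Its log2 fold changes were 0.72 ± 0.24, 0.56 ± 0.23, 0.32 ± 0.17 and -0.23 ± 0.20. Over all 26 groups the mean level of Arntl spanned 0.86 on the log2 scale, against 3.35 for Dbp. Arntl, however, lay near the median of a sample's spots, which was 6.63 to 6.65 in the deposited values, and no background was subtracted. Per3 after CuO NH3 40, at 6.76, 6.90 and 7.14, came near that median too. Whether this low intensity narrowed the span of Arntl or the fall of Per3 was not tested.

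Nfil3, the repressor at D-boxes, was higher where Dbp was lower. It ran from 7.76 to 8.43 in the PBS-challenged controls (median 8.11), and stood at 9.70, 9.83 and 10.13 after CuO 40, at 9.17, 9.70 and 9.71 after CuO COOH 40, at 9.86, 9.91 and 10.08 after CuO NH3 40, and at 8.69, 8.74 and 9.12 after CuO PEG 40. All 4 groups lay above all 7 controls. The log2 fold changes were 2.22 ± 0.24, 1.67 ± 0.23, 1.87 ± 0.17 and 0.81 ± 0.20. Its 2 probes gave 2.16 and 2.28 after CuO 40.

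**Figure D2:**
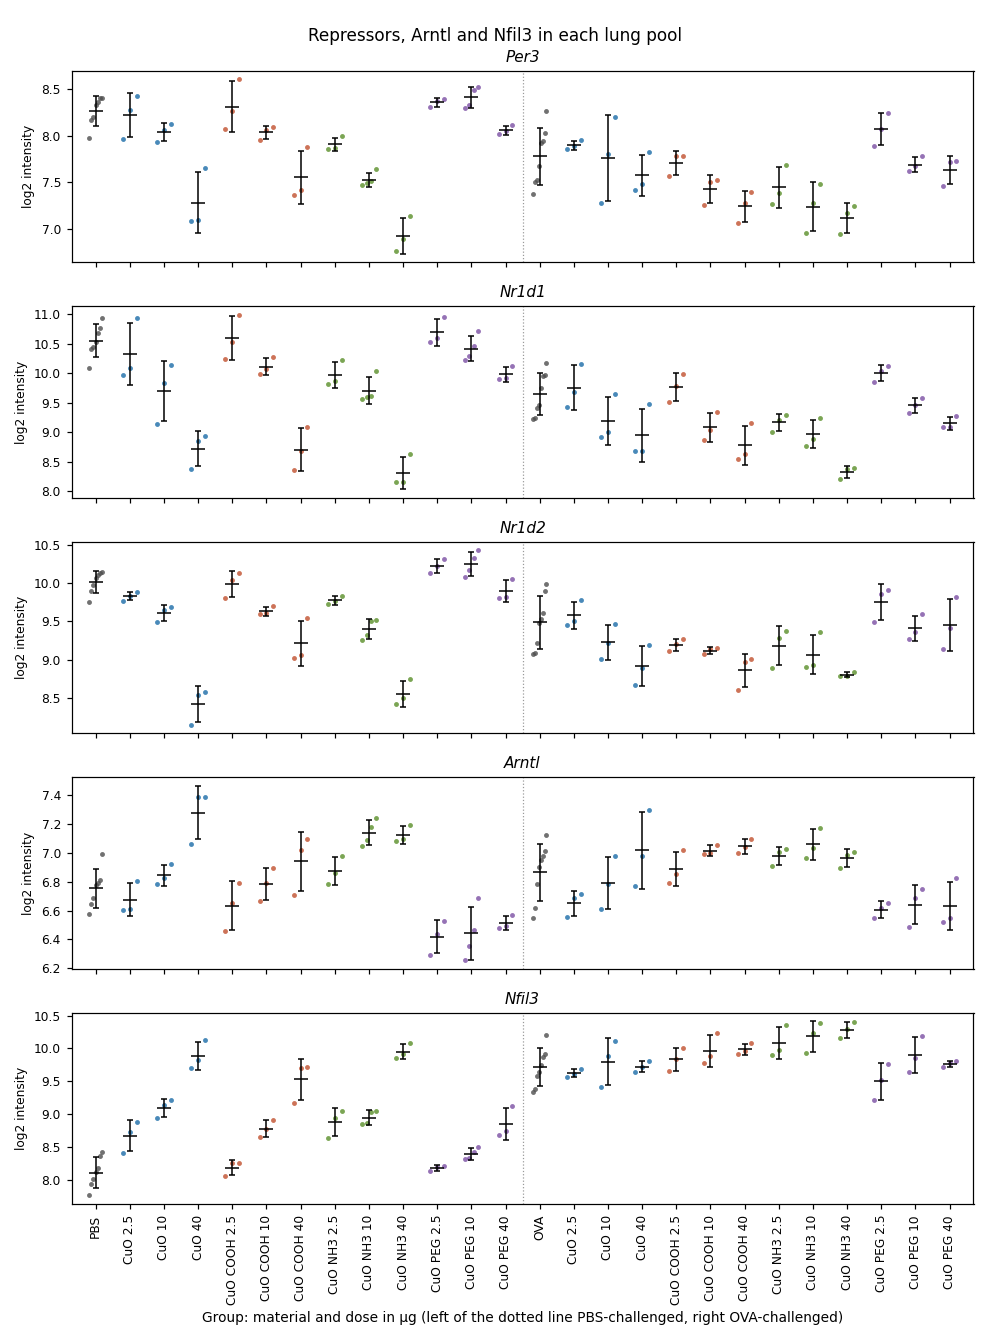
Level of Per3, Nr1d1, Nr1d2, Arntl and Nfil3 (log2 intensity, vertical axes) in the 26 groups (horizontal axis, dose in μg/mouse), with a point for each pool and a bar for the group mean ± SD. Per3, Nr1d1 and Nr1d2 step down with dose in CuO, CuO COOH and CuO NH3, Nfil3 steps up from 8.11 in PBS-challenged controls to 9.95 after CuO NH3 40, and Arntl spans 0.86 in all.

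The order of the 26 groups is given for Dbp, Arntl and Nfil3. Dbp was highest after CuO PEG 2.5 (14.70), then CuO PEG 10 (14.45) and the PBS-challenged controls (14.43 ± 0.22, SD, n = 7), and lowest after CuO NH3 40 (11.36 ± 0.23, n = 3) and CuO 40 (11.57 ± 0.42, n = 3). The OVA-challenged controls ranked 13th (13.37 ± 0.46, n = 8). Of the 25 pairs of neighbours in this order, 24 differed by less than the pooled SD of 0.30, and the exception lay between CuO 2.5 and CuO COOH 10. Arntl was lowest after CuO PEG 2.5 (6.42) and highest after CuO 40 (7.28), with all 25 pairs of neighbours closer than the pooled SD of 0.14. Nfil3 was lowest in the PBS-challenged controls and highest after CuO NH3 40 with OVA (10.28 ± 0.12, n = 3).

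Of the 24 exposed groups, 12 lay wholly below the controls of their challenge for Dbp, 8 for Tef, 8 for Hlf, 8 for Nr1d2, 7 for Per1, 6 for Nr1d1, 5 for Per3, and 4 for Per2. Over all genes and the 24 groups, 7.39% of the group and gene pairs lay wholly below. For Nfil3, 8 groups lay wholly above, against 8.31% over all genes. After 40 μg/mouse in PBS-challenged mice, 17.3%, 17.4%, 18.6% and 9.53% of all genes lay wholly below the controls for CuO, CuO COOH, CuO NH3 and CuO PEG, and 19.2%, 18.1%, 19% and 10.5% wholly above. At that dose 8 of the 10 genes were called after CuO (14.1% of all genes), 7 after CuO COOH (10.3%), 9 after CuO NH3 (13.2%) and 1, Nfil3, after CuO PEG (2.24%). At lower doses 1 was called after CuO 10 (3.61%), 1 after CuO COOH 10 (3.61%), 1 after CuO NH3 2.5 (0.96%) and 5 after CuO NH3 10 (3.32%). Over the 12 exposures of PBS-challenged mice this came to 33 of 120 gene and exposure pairs against 4.42% over all genes, 9 higher (2.77%) and 24 lower (1.65%). Since these comparisons chose the genes, nothing is read from the counts.

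**Figure D3:**
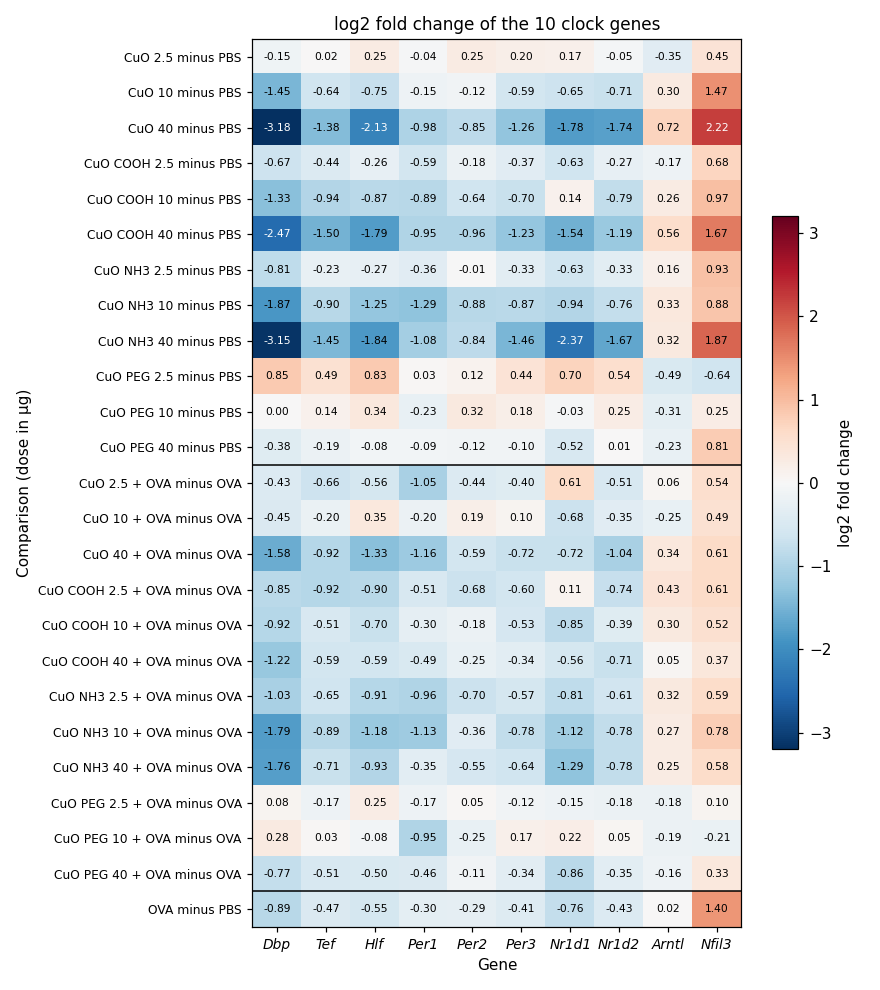
log2 fold change of the 10 genes (columns) in each of 24 exposures against the controls of the same challenge and in OVA-challenged against PBS-challenged controls (rows), blue for lower and red for higher, with the value printed in each cell. The 40 μg/mouse rows of CuO, CuO COOH and CuO NH3 in PBS-challenged mice hold the lowest Dbp values (-3.18, -2.47 and -3.15).

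The allergen alone was compared through the controls. Between OVA-challenged and PBS-challenged controls Dbp ran from 12.83 to 14.14 (median 13.42) against 14.06 to 14.69, so that 1 of the 8 OVA-challenged pools reached the range of the other controls. Its log2 fold change was -0.89 ± 0.27. Nfil3 ran from 9.34 to 10.20 in OVA-challenged controls (median 9.70), wholly above the PBS-challenged controls, with a log2 fold change of 1.40 ± 0.15. For Hlf, Nr1d1, Tef, Nr1d2, Per3, Per1 and Per2 the values were -0.55, -0.76, -0.47, -0.43, -0.41, -0.30 and -0.29, and for Arntl 0.02. Of the 10 genes 2, Dbp and Nfil3, were called, against 5.23% of all genes. On slides 1 to 3 alone the values were -0.97 for Dbp and 1.46 for Nfil3, and on slides 4 to 6 alone -0.72 and 1.27.

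In OVA-challenged mice the exposed groups were set against controls in which Dbp was already lower and Nfil3 higher. Against OVA-challenged controls the log2 fold change of Dbp at 40 μg/mouse was -1.58 ± 0.44 for CuO, -1.22 ± 0.31 for CuO COOH, -1.76 ± 0.34 for CuO NH3 and -0.77 ± 0.37 for CuO PEG. The levels were 12.26, 12.31 and 12.85 after CuO 40 with OVA, 11.83, 12.02 and 12.11 after CuO COOH 40 with OVA, and 11.61, 11.77 and 11.87 after CuO NH3 40 with OVA. The last 2 groups lay below all 8 OVA-challenged controls, and CuO 40 overlapped them. Nfil3, which was already high in those controls, had log2 fold changes of 0.61, 0.37, 0.58 and 0.33 in the same order of materials. Its levels, however, overlapped the controls, which ran from 9.34 to 10.20. They were 9.64, 9.72 and 9.81 after CuO 40 with OVA and 9.71, 9.78 and 9.80 after CuO PEG 40 with OVA. After CuO COOH 40 with OVA they ran from 9.92 to 10.08, and after CuO NH3 40 with OVA from 10.16 to 10.40. Over the 12 exposures of OVA-challenged mice 6 of 120 pairs were called against 1.2% over all genes, 1 higher (0.686%) and 5 lower (0.51%). The count was 26 with array as a random block, 13 with dye, slide and position, and 40 with a replicate block. It lay between 2 and 12 when each sample was dropped, which also took out the weight of the sample sharing its array. The 6 calls were for Dbp, Tef, Nr1d1 and Nfil3, and lay in CuO NH3 10 (3 genes, 2.51% of all genes), CuO NH3 40 (2 genes, 3.94%) and CuO COOH 40 (1 gene, 3.83%). The group CuO 2.5 with OVA rests wholly on 1 of its 3 pools in this model, because the others lay alone on their arrays.

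The effect of each material was subtracted between the challenges (OVA minus PBS). The difference was 1.60 ± 0.49 (SE) for Dbp after CuO 40, 1.26 ± 0.51 after CuO COOH 40 and 1.39 ± 0.44 after CuO NH3 40, and -0.39 ± 0.52 after CuO PEG 40. For Nfil3 it was -1.61 ± 0.27, -1.30 ± 0.28, -1.29 ± 0.24 and -0.48 ± 0.29. The difference for Dbp at CuO PEG was smaller than its SE. For Arntl it was between -0.51 and 0.06.

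**Figure D4:**
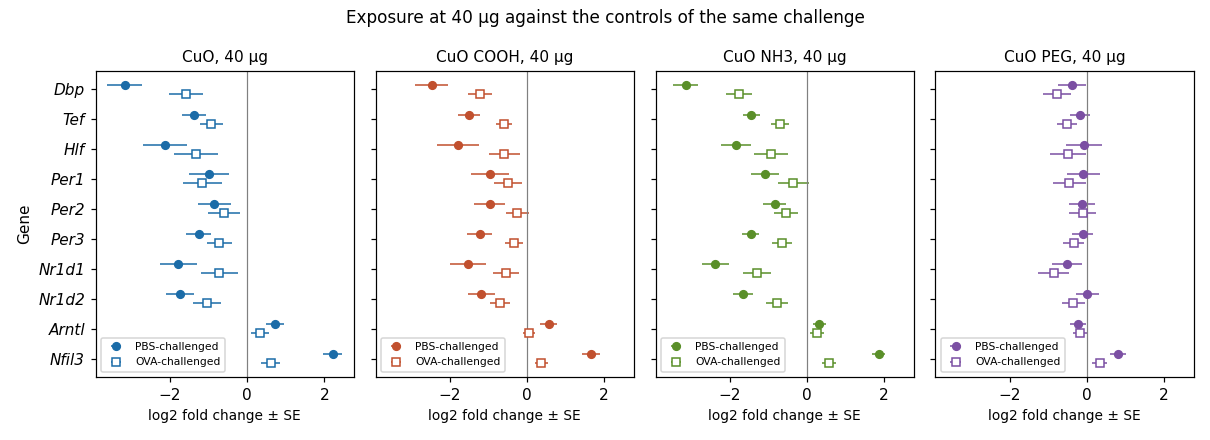
log2 fold change (horizontal axis, bars ± SE) of each gene (vertical axis) at 40 μg/mouse of each material, against the controls of the same challenge, in PBS-challenged (filled) and OVA-challenged (open) mice. For Dbp after CuO the filled point lies at -3.18 and the open point at -1.58, while the filled points of CuO PEG lie within 1 of 0 in every gene.

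Set against core CuO at 40 μg/mouse in PBS-challenged mice, in a model with dye, slide and array position, CuO PEG was higher in Dbp by 2.35 ± 0.32, in Hlf by 1.48 ± 0.36, in Nr1d2 by 1.48 ± 0.22, in Nr1d1 by 1.26 ± 0.32, in Tef by 0.89 ± 0.22 and in Per3 by 0.78 ± 0.22, and stood at -1.04 ± 0.23 in Nfil3 and -0.76 ± 0.15 in Arntl. CuO NH3 differed from CuO by -0.22 ± 0.33 in Dbp and 0.06 ± 0.23 in Nfil3, less than an SE in both. CuO COOH stood at 0.85 ± 0.27 in Dbp and -0.36 ± 0.19 in Nfil3. In OVA-challenged mice the Dbp values of CuO PEG, CuO NH3 and CuO COOH against CuO were 0.72 ± 0.35, -0.73 ± 0.32 and -0.49 ± 0.29. The order of CuO COOH and CuO there depended on the model. Against the OVA-challenged controls, with array as a term, CuO COOH stood higher than CuO (-1.22 against -1.58). At 2.5 μg/mouse in PBS-challenged mice it also changed, with CuO COOH above CuO by 0.43 ± 0.27 in the present model. CuO and CuO PEG lay on different slides, so the material and the slides are separated only through the controls that both sets of slides held. Doses were equal in mass of the whole material. The paper measured less copper in the coated materials than in core CuO, and least in CuO PEG. Surface group and copper dose therefore cannot be told apart in these comparisons.

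The other genes of the clock were tested in the same model, from a list of 20 of which 19 were measured. Over the 12 exposures of PBS-challenged mice 14 of 228 gene and exposure pairs were called by limma, 3 higher and 11 lower, against 4.42% over all genes. Cry2, a repressor that works with the period proteins, was called lower in 5 of these exposures. It ran from 12.05 to 12.38 in PBS-challenged controls, and stood at 10.70, 10.95 and 10.98 after CuO 40, at 10.96, 11.05 and 11.27 after CuO COOH 40 and at 10.72, 10.80 and 10.97 after CuO NH3 40, with no overlap. The log2 fold change of Cry2 was -1.45 ± 0.25 after CuO 40 (adjusted p = 0.000223), -1.58 ± 0.24 after CuO COOH 40 and -1.41 ± 0.18 after CuO NH3 40 (adjusted p = 2.21e-06), -1.22 ± 0.27 after CuO COOH 10 (adjusted p = 0.00985) and -0.77 ± 0.18 after CuO NH3 10 (adjusted p = 0.0114), all by limma with Benjamini-Hochberg adjustment over all genes. It was -0.28 ± 0.21 after CuO PEG 40, which was not called.

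Rora, which activates Arntl at the same element the REV-ERBs repress, fell after CuO 40 by 0.75 on the log2 scale (limma adjusted p = 0.00752), after CuO COOH 40 by 0.62 and after CuO NH3 40 by 0.70. Btrc, an F-box protein that marks period proteins for degradation, fell after CuO 40 and CuO COOH 40, to -0.64 and -0.63. Bhlhe41, a repressor at E-boxes, was called once, after CuO 40, at -0.59 ± 0.19 (limma adjusted p = 0.0309). Timeless, better known for its part in DNA replication than in the mouse clock, rose after CuO 40, CuO COOH 40 and CuO NH3 40, by 0.61, 0.90 and 0.94. Clock, the partner of BMAL1, was not called, and its log2 fold changes at 40 μg/mouse in PBS-challenged mice were -0.07 ± 0.15, -0.02 ± 0.15, 0.09 ± 0.11 and -0.11 ± 0.13 for CuO, CuO COOH, CuO NH3 and CuO PEG. Cry1 was not called either, at 0.17 ± 0.18, -0.22 ± 0.18, 0.11 ± 0.13 and -0.08 ± 0.15, nor was Npas2, whose only probe was well above background in 0 samples. The list as a whole had a median log2 fold change of -0.08 after CuO 40, with 7 of 19 genes above 0, against 0.01 for all genes.

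**Figure D5:**
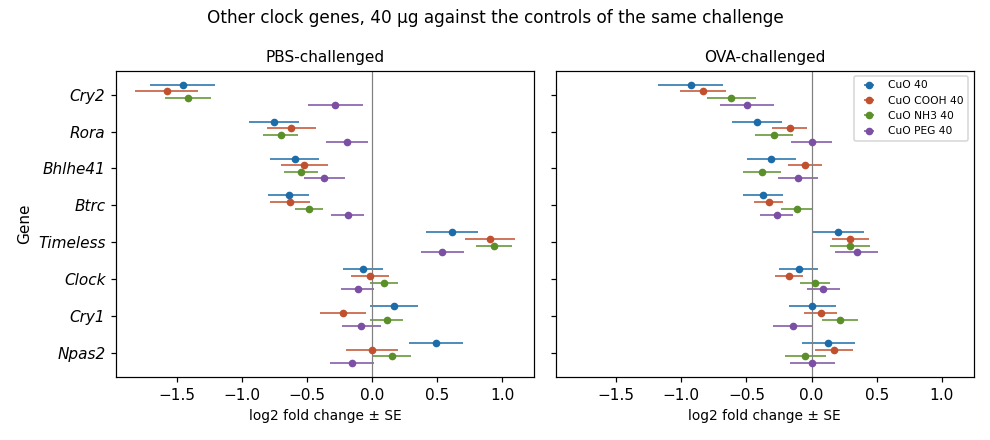
log2 fold change (horizontal axis, bars ± SE) at 40 μg/mouse against the controls of the same challenge, for 8 other clock genes (vertical axis) in PBS-challenged (left) and OVA-challenged (right) mice, one colour per material. Cry2 and Rora lie to the left and Timeless to the right of 0 after CuO, CuO COOH and CuO NH3, and Clock and Cry1 lie near 0.

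In OVA-challenged mice 2 of 228 pairs of the other clock genes were called, against 1.2% over all genes, and the count was 9 with a replicate block and 4 without dim probes. Both calls were for Cry2 and both were lower, at -0.84 ± 0.18 after CuO COOH 40 (limma adjusted p = 0.00535) and -0.79 ± 0.19 after CuO NH3 10 (limma adjusted p = 0.0232). Between OVA-challenged and PBS-challenged controls Cry2 fell by 0.68 (limma adjusted p = 0.00327) and Timeless rose by 0.60 (limma adjusted p = 0.00141). The difference between the challenges at 40 μg/mouse was called by limma for 0 of 76 gene and material pairs, against 0.959% over all genes, and 8 of them had an unadjusted p below 0.05. Its largest value for Cry2 was 0.80 ± 0.25 after CuO NH3 (limma adjusted p = 0.122). Between materials Cry2 was higher with CuO PEG than with CuO at 10 μg/mouse (0.67 ± 0.17, limma adjusted p = 0.0201) and at 40 μg/mouse (0.91 ± 0.17, limma adjusted p = 0.000212) in PBS-challenged mice, and these were the 2 calls of the list among 18 comparisons of materials, which called 0.508% over all genes.

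Genes that respond to glucocorticoids were measured beside the clock genes, because stress hormones also act on Per1. Of 96 pairs in PBS-challenged mice 7 were called, 4 higher and 3 lower, against 4.42% over all genes. Over both challenges the count was 28 with array as a random block, 21 with dye, slide and position, and 34 with a replicate block. Fkbp5, a co-chaperone of the glucocorticoid receptor, rose by 1.56 after CuO 40 (limma adjusted p = 0.00213), by 1.14 after CuO COOH 40 and by 0.91 after CuO NH3 40. Ddit4, an inhibitor of mTOR signalling, rose by 1.07 after CuO COOH 40. Klf9, a transcription factor that cycles with the day, fell by 0.93 after CuO COOH 40 and by 1.27 after CuO NH3 40 (limma adjusted p = 0.000139), and Tsc22d3, the gene of GILZ, fell by 1.13 after CuO NH3 40 (limma adjusted p = 0.00862). The list thus moved in both directions, and its part in the values of the clock genes was not tested. In OVA-challenged mice limma called 0 of 96 pairs, with 16 at an unadjusted p below 0.05, and 1.2% were called over all genes.

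Markers of some lung and blood cell types differed along with the clock genes at 40 μg/mouse. The mean level of the 4 alveolar type 1 markers did not, running from 13.84 to 14.05 in PBS-challenged controls and from 13.90 to 14.04 after CuO 40. The ranges of the alveolar type 2, ciliated, smooth muscle, macrophage and eosinophil lists after CuO 40 also overlapped those of the controls. After CuO NH3 40, however, the alveolar type 2 list lay wholly below them (15.07 to 15.16 against 15.27 to 15.54). The ciliated list did so too (8.60 to 8.85 against 8.97 to 9.25), and the smooth muscle list lay wholly above (11.01 to 11.05 against 10.66 to 10.82). The mean level of the 2 measured erythrocyte markers ran from 14.07 to 14.78 in PBS-challenged controls, from 11.36 to 12.01 after CuO 40, from 11.42 to 11.97 after CuO COOH 40, from 11.99 to 12.32 after CuO NH3 40 and from 13.35 to 13.78 after CuO PEG 40. The 5 endothelial markers ran from 12.11 to 12.77 in those controls, from 11.47 to 11.58 after CuO 40, from 11.44 to 11.68 after CuO COOH 40 and from 11.37 to 11.62 after CuO NH3 40. In the same order of groups the 3 club cell markers ran from 16.23 to 16.96, 15.11 to 16.00, 14.77 to 15.82 and 14.26 to 14.64, and the 5 T cell markers from 7.88 to 8.36, 7.24 to 7.50, 7.47 to 7.71 and 7.53 to 7.65. In these lists every pool of the 3 exposures lay below every control. The 5 neutrophil markers ran from 11.97 to 12.50, 12.57 to 12.99, 12.28 to 12.53 and 12.87 to 13.31, so that CuO COOH 40 overlapped the controls and the other two lay above them. The 4 eosinophil markers ran from 6.67 to 7.18 in PBS-challenged against 7.76 to 8.60 in OVA-challenged controls. The part of these shifts in the values of Dbp and the other clock genes was not tested.

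Over the 26 group means, the genes whose pattern was most like that of Dbp, among 15428 genes well above background in at least 50% of samples, were Akap13 (r = 0.96), Zfp467 (0.95), Greb1 (0.95), Pamr1 (0.95) and Atp2a3 (0.94), a calcium pump. The most opposite were Dtx4 (-0.97), Nme6 (-0.97), Adamts4 (-0.96), a protease of the extracellular matrix, Slc39a14 (-0.96), an importer of zinc and iron, and Mrpl49 (-0.95). For Arntl the closest were Adm (0.91), the vasodilator adrenomedullin, Foxs1 (0.89), Tmem147 (0.88), Spon2 (0.87) and Dtx4 (0.83), and the most opposite Mnt (-0.85), Bcl2 (-0.84), an inhibitor of apoptosis, Ankrd12 (-0.83), Maco1 (-0.83) and Greb1 (-0.82). The points share arrays and normalization, so these are descriptions over 26 groups. Of the other members Hlf, Nr1d2 and Per3 were nearest to Dbp (0.97 each), Per1 stood at 0.73, Nfil3 at -0.80 and Arntl at -0.87.

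Some values rest on few pools. With array as a fixed term, the pool that shared an array with a dropped one also no longer added to the comparisons. Without replicate 2 of CuO 40 the log2 fold change of Nr1d1 after CuO 40 was -0.33 in place of -1.78 and that of Tef -0.78 in place of -1.38, while that of Dbp was -2.43. Without replicate 1 of the PBS-challenged controls the values after CuO COOH 40 were larger, with -3.66 in place of -2.47 for Dbp, -3.05 in place of -1.79 for Hlf, -2.45 in place of -1.50 for Tef, -2.55 in place of -1.54 for Nr1d1, -1.88 in place of -1.19 for Nr1d2 and -1.89 in place of -1.23 for Per3. They were smaller without replicate 1 of CuO COOH 40, at -1.95, -1.24, -1.09, -1.09, -0.89 and -0.94 in the same order of genes. Without replicate 1 of CuO COOH 40 with OVA the value of Dbp there was -0.54 in place of -1.22. Other values there changed sign, to 0.60 for Hlf, 0.88 for Per2, 0.40 for Per3 and 0.13 for Nr1d2. Those of Tef (-0.03), Per1 (-0.09) and Nr1d1 (-1.24) stayed below 0. After CuO NH3 40 in PBS-challenged mice Dbp lay between -3.22 and -3.07 with each pool of that group or of its controls left out in turn.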

How the data were processed

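Lung RNA from 89 pools was measured on 46 arrays of 6 slides, 43 with 2 of the samples and 3 with 1. The authors deposited Agilent scanner output, in which the median foreground intensity of each spot and channel is unnormalized (made with Feature Extraction 12.0.2.2 per the file headers), and a table of normalized log2 values per spot. The methods give log2, quantile normalization and then ComBat for labelling and array, and in the deposited table the spots of each sample kept the rank order of its scanner channel (Spearman's rho of 1 in all 89). Group and dye were taken from the deposited labels. CuO and CuO COOH lay on slides 1 to 3 and CuO NH3 and CuO PEG on slides 4 to 6, with controls of both challenges on each.

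No background was subtracted: log2 of the median foreground intensity was quantile normalized. Of 62976 spots, 3671 controls were removed, as were outlier spots. The remaining spots were averaged to 56605 probes, and the 32989 with a gene in the RefSeq table (matched by transcript accession) to 22907 genes, while 23616 probes had none. One limma model over all 26 groups, with dye and array as fixed terms and 17 residual degrees of freedom, gave log2 fold changes and Benjamini-Hochberg adjusted p-values (R 4.3.3 with limma 3.58.1). Comparisons of materials used dye, slide and position. The fits were tested on simulated data.

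The members and lists were chosen with earlier results of these data known, so the members have no p-values. Of the other clock and glucocorticoid genes, those called at least once were named, with Clock, Cry1 and Npas2, and for likeness the 5 genes at either end. Rorb, of the clock list, had no measured gene. The alternatives tried were normexp (offset 50), loess with Aquantile on 86 samples, removal of 23529 dim probes, the deposited table, a random block for array, the terms dye, slide and position, a replicate block, controls of the same slides, no fold limit, and each sample left out. Figures were drawn with Python 3.11.15 and matplotlib 3.10.9. Motifs were searched in 250 bases before RefSeq start sites, on both strands. Nothing says whether pools of a group came from separate cages or days, so p-values measure the spread between pools. Depth is not counted on arrays, and the number of pools limits the precision.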

Additional observations from a re-analysis of the deposited data

Results flagged for a closer look

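In groups of 4 to 10 samples, 3 of 40 combinations of gene and group had a sample far from the others, and chance gives about 1 in 20. In CuO PEG 10 of PBS-challenged mice replicate 1 was the lowest of 4 for Dbp at a level of 14.08, against 14.54 for the nearest, and for Tef at 11.17, against 11.51. In CuO NH3 10 of PBS-challenged mice replicate 1 was the highest of 4 for Nr1d1 at 10.04, against 9.62 for the nearest. Both samples lay on slide 4.

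Of 120 combinations of gene, material and dose, 4 had every PBS-challenged pool on one side of its controls' mean level and every OVA-challenged pool on the other. These differences were not tested. Subtracting the PBS-challenged effect from the OVA-challenged one, in mean levels, gave for CuO 2.5 0.63 for Dbp and -0.65 for Nfil3, and for CuO PEG 10 -0.61 for Hlf and -0.23 for Per3.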

How the results depend on the processing

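Counts of calls moved with how the array entered the model and, more so for members in OVA-challenged mice and glucocorticoid-responsive genes, with a replicate block, and the cause was not tested. With array as a random block, the members called were 26 in place of 6 in OVA-challenged mice and 5 in place of 2 between the controls, the other clock genes 9 in place of 14 in PBS-challenged mice, and the glucocorticoid-responsive genes 28 in place of 7. With dye, slide and position the members called were 13 in OVA-challenged mice and 6 between the controls, the glucocorticoid-responsive genes 21, and the difference between the challenges was called for 3 of the other clock genes in place of 0. With dye and array, Cry2 and the rest of that list differed between materials in 1 case in place of 2, and the range of the Dbp means was 4.03 in place of 3.35. Between the controls, the members called were 1 with loess, 1 on slides 1 to 3 and 0 on slides 4 to 6, and the other clock genes 1 with normexp, 0 on slides 4 to 6 and 5 without a fold limit in place of 2. Leaving out dim probes gave 4 other clock genes in OVA-challenged mice in place of 2. The members called in PBS-challenged mice were 24 with controls of the same slides and 31 to 46 with the other settings, in place of 33.

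With the replicate number as a block, the members called were 46 in PBS-challenged mice, 40 in OVA-challenged mice and 4 between the controls, the other clock genes 9 in OVA-challenged mice and the glucocorticoid-responsive genes 34. Samples that share a number did not vary together throughout: in 0 of 24 comparisons were all pairs above 0.1, and the correlations ran from -0.32 to 0.29. Of 74 pairs, 33 correlated best with their own number. In PBS-challenged mice this held for 2 or 3 of 3 pairs at each dose of CuO and CuO COOH. In every other comparison it held for 0 to 2 pairs. For CuO and CuO COOH in PBS-challenged mice, the pools that share a number also shared a slide, and only dye had been removed. Number and slide therefore cannot be told apart there. These values do not decide whether the number pairs samples.

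With each sample left out in turn, the members called ranged from 21 to 36 in PBS-challenged mice, from 2 to 12 in OVA-challenged mice and from 1 to 3 between the controls, and the other clock genes from 10 to 16, from 1 to 4 and from 1 to 3. The glucocorticoid-responsive genes ranged from 4 to 11, the difference between the challenges from 0 to 1, the materials from 1 to 3 and the range of Dbp from 3.25 to 3.48. With array as a fixed term, the sample left alone on the array of a dropped one no longer added to the comparisons. Samples of the same array therefore gave the same counts against the controls, and are not separate cases. In PBS-challenged mice the members called were 21 without CuO 40 replicate 2 or CuO COOH 10 + OVA replicate 2. In OVA-challenged mice they were 2 without CuO NH3 10 + OVA replicate 3 or OVA replicate 7, 3 without CuO NH3 10 replicate 2 or CuO PEG 40 + OVA replicate 3, 12 without CuO PEG 40 replicate 1 or OVA replicate 5, and 10 without PBS replicate 1, CuO COOH 10 replicate 1 or 3, CuO COOH 40 replicate 1, CuO COOH 2.5 + OVA replicate 1 or CuO 40 + OVA replicate 3. Of 1720 alternative values of the members' log2 fold changes, 1461 moved by less than the spread between replicates and 259 by more. Called values changed sign in 0 cases. The larger moves were uneven over the settings. With array as a random block 38 of 90 values moved by more, with dye, slide and position 37 of 90, and with a replicate block 49 of 90. With normexp, with loess, without dim probes and with the deposited values it was 0 of 90 each. With controls of the same slides it was 3 of 80, and with each sample left out 129 of 990.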

Other observations

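Within groups, too, the members varied together. Over the deviations of the 89 pools from their group means, Dbp and Tef had r = 0.92, Hlf and Per3 0.92, and Dbp and Arntl -0.68, while Nr1d1 ran from 0.53 with Dbp, 0.38 with Tef and 0.33 with Per3 to 0.11 with Nr1d2 and 0.07 with Per2, and had -0.45 with Nfil3 and -0.14 with Arntl. Pools of an array and slide share hybridisation, and no test was made. Nr1d1 and Nr1d2 had r = 0.93 over the 26 group means.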
